A study of Danio rerio with 4 samples.

Results

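The change between 5.5 and 7.5 days post fertilization (dpf) was described in liver cells of zebrafish larvae homozygous for a zc3h8 mutation (zc3h8-/-). Of 13509 genes that the authors' table of this comparison lists, and of 33737 genes in the whole series, 4064 reached at least 10 CPM (reads of a gene scaled to the total reads of its library) at both mutant stages and form the set described here. For each, the log2 ratio of the 7.5 dpf value over the 5.5 dpf value was taken, so that a ratio of 1 or more marks a gene at least 2-fold higher at 7.5 dpf. There were 4 groups: zc3h8-/- at 7.5 dpf, zc3h8-/- at 5.5 dpf, wild type at 7.5 dpf and wild type at 5.5 dpf, each with 1 library. All 4 were of the strain labelled ABGO and carried the transgene Tg(lfabp:Dendra2-NTR), in which the promoter of a liver fatty acid binding protein gene drives a fluorescent protein fused to a nitroreductase, so that wild-type cells carried both foreign proteins too. Livers were dissected and dissociated with trypsin, labelled cells were collected by flow cytometry, and their RNA was turned into libraries with Smart-seq2, a protocol that amplifies whole cDNA by PCR. How many larvae were pooled for a library is not given in the labels. With 1 library at each stage there was no replicate, the spread between larvae is unknown, and no test of a difference was possible. Ratios are therefore given as sizes, with 95% counting intervals that cover counting error only.

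Zc3h8 is a zinc finger protein of the CCCH class and a subunit of the little elongation complex, which serves transcription of small nuclear RNA genes. The study's title names hepatocyte degeneration and the inflammatory response as its subjects. Hepatocytes make most plasma proteins, among them transferrin, fibrinogen, clotting factors and apolipoproteins, and hold the enzymes of gluconeogenesis, fatty acid oxidation, amino acid breakdown and bile acid synthesis. In a larva at these stages the yolk is being used up and the liver is taking over these tasks. The mutated gene itself could not be matched to an ID by its symbol and is not analysed here, which leaves the genotypes as labelled.

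The library totals by which the table of each genotype was scaled, as the value of 1 read gives them, were 29648892 and 36353834 reads for the mutant at 7.5 and 5.5 dpf, and 36965189 and 35907872 reads for wild type at 7.5 and 5.5 dpf. A level of 10 CPM stood for 296 to 370 reads in each library, and the median width of a counting interval, upper over lower bound, was 1.15. Genes with a level above 0 numbered 12037 and 10979 in the mutant at 7.5 and 5.5 dpf, and 9621 and 13137 in wild type at 7.5 and 5.5 dpf. Hepatocyte markers were present in all 4 libraries: the 9 matched marker genes summed to 20049 CPM in mutant cells at 7.5 dpf and 47075 CPM at 5.5 dpf, and to 83910.2 and 101432 CPM in wild-type cells at 7.5 and 5.5 dpf. Among these 9, hpxa had 0 reads at both mutant stages. The labelled cell type was thus visible at both mutant stages, at a lower sum than in wild type. Skin markers, keratins for the most part, were at 15862 CPM at 7.5 dpf and 23342 CPM at 5.5 dpf in the mutant. In wild type they were at 22618 and 11343 CPM at 7.5 and 5.5 dpf. Of these sums the keratin gene krt4 alone held 8154 and 15476 CPM in the mutant and 14404 and 7903 CPM in wild type. Which cells the keratin reads came from was not tested. Markers of exocrine pancreas and of muscle, given further on, also had reads in all 4 libraries. Lower levels of hepatocyte genes in a library can mean fewer hepatocytes or less of that RNA per cell, and these cannot be told apart here.

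Of the 4064 genes, 932 (22.9%) were at least 2-fold higher at 7.5 dpf than at 5.5 dpf, 683 (16.8%) were at least 2-fold lower and 2449 (60.3%) lay within 2-fold. At 4-fold the counts were 287 higher (7.06%) and 164 lower (4.04%). The median log2 ratio was 0.13, with quartiles at 0.92 and −0.66, and the ratios ran up to 5.21 and down to −4.44. With this median set to 0, which takes 0.13 off each log2 ratio, 822 genes were higher and 808 lower, and the list medians below are to be read against 0.13. The direction differed with abundance: of 112 genes with a mean above 1000 CPM, 9 were higher and 27 lower, whereas of 1932 genes between 30 and 100 CPM, 542 were higher and 338 lower. The genes that were 2-fold lower took 8.69% of reads at 7.5 dpf against 25.9% at 5.5 dpf, and those that were 2-fold higher took 15.5% at 7.5 dpf against 4.64% at 5.5 dpf. For 188 of the genes past 2-fold the counting interval reached across 2-fold.

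**Figure D1:**
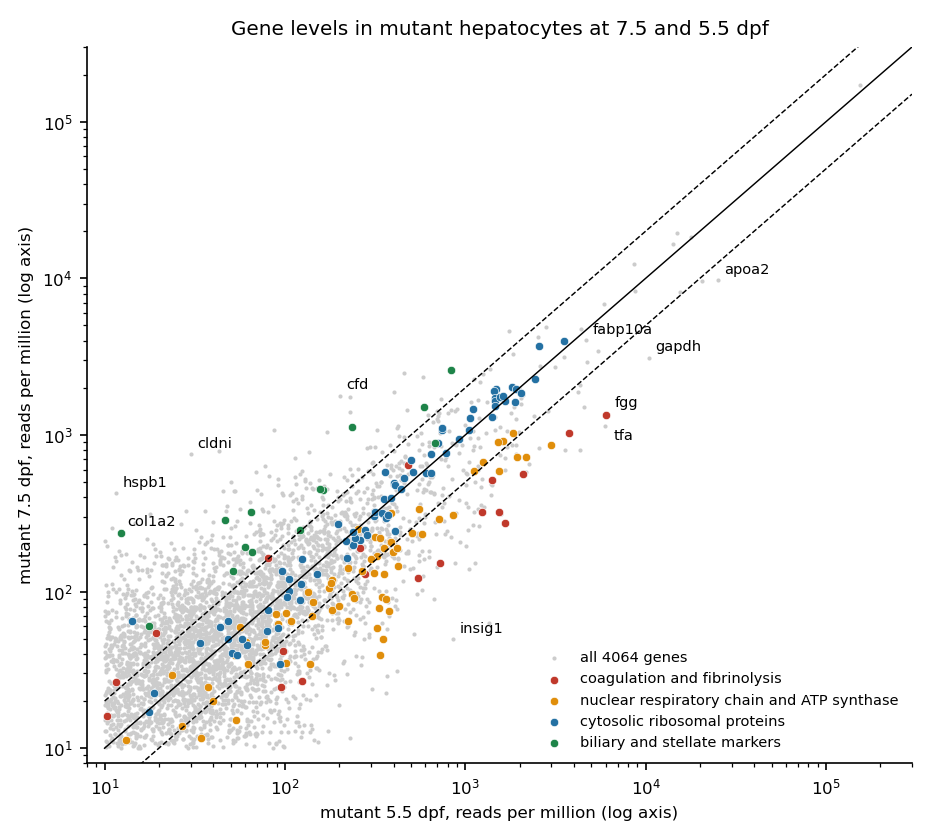
Level of each of the 4064 genes in mutant cells at 7.5 dpf (vertical axis) and 5.5 dpf (horizontal axis), both in CPM on log axes, with 4 gene lists in colour. The solid line marks equal levels and the dashed lines 2-fold. Genes of coagulation and of the respiratory chain lie mostly below the line, ribosomal protein genes along it (74 of 75 between −1.45 and 0.68 on the log2 scale), and biliary and stellate markers above it.

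Genes for secreted liver proteins were lower at 7.5 dpf as a group. Of 26 kept members of this list, 0 were 2-fold higher and 16 were 2-fold lower, and the median log2 ratio was −1.38. Together they stood at 17344 CPM at 7.5 dpf against 36736 CPM at 5.5 dpf. Transferrin (tfa), the iron carrier of plasma, had 1145 CPM at 7.5 dpf against 5969 at 5.5 dpf and was 5.21-fold lower (95% counting interval 5.15 to 5.27). In wild type tfa had 8031 CPM at 7.5 dpf against 22447 CPM at 5.5 dpf, so that it was lower at the later stage there too. The protease inhibitor gene serpina1 had 246 CPM at 7.5 dpf against 1037 at 5.5 dpf, and ttr, which encodes the thyroid hormone carrier transthyretin, had 90.9 CPM at 7.5 dpf against 393 at 5.5 dpf. Not all members were 2-fold lower. The liver fatty acid binding protein gene fabp10a, counted here although its product stays inside the cell, had 4048 CPM at 7.5 dpf against 4679 at 5.5 dpf, a ratio within 2-fold. The gene igfbp1b, for an insulin-like growth factor binding protein, had 629.8 CPM at 7.5 dpf against 412 at 5.5 dpf. In wild-type cells fabp10a stood at 14043 CPM at 7.5 dpf and 10644 CPM at 5.5 dpf, above both mutant values, and the list's wild-type median was −0.24 over the same 26 genes.

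Clotting and fibrinolysis genes had the lowest median of the lists with at least 10 kept genes. Of 19 kept members, 13 were 2-fold lower and 3 were 2-fold higher, with a median of −1.87 in the mutant against −0.62 in wild type over 18 members. The 3 fibrinogen chains, which together form the clot protein, were lower alike: fgg had 1343 CPM at 7.5 dpf against 6043 at 5.5 dpf (4.50-fold, 4.45 to 4.55). The chains fga and fgb had 320.5 and 324 CPM at 7.5 dpf against 1239 and 1539.9 CPM at 5.5 dpf. Prothrombin (f2) had 276 CPM at 7.5 dpf against 1661 at 5.5 dpf, a 6.02-fold lower level, and plg, the precursor of the fibrin-cleaving enzyme plasmin, had 152 CPM at 7.5 dpf against 728 at 5.5 dpf. The other direction was taken by f3b, a tissue factor gene (163 CPM at 7.5 dpf against 80.1 at 5.5 dpf), by pros1, for the anticoagulant protein S (26.6 CPM at 7.5 dpf against 11.5 at 5.5 dpf), and by serpina10a, for a protein Z-dependent inhibitor (54.6 CPM at 7.5 dpf against 19.2 at 5.5 dpf). Prothrombin in wild type was at 982 CPM at 7.5 dpf and 1767 CPM at 5.5 dpf, so that it was lower at the later stage there too.

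The acute phase list held some of the same genes and gave a median of −1.95, with 6 of 9 members lower and 2 higher. The pentraxin gene apcs had 63.3 CPM at 7.5 dpf against 345 at 5.5 dpf, and the inhibitor gene a2ml had 68.5 CPM at 7.5 dpf against 269.8 at 5.5 dpf. The list's 2 genes of CCAAT/enhancer-binding transcription factors, regulators of this response, stood higher at 7.5 dpf, cebpd past 2-fold (967 CPM at 7.5 dpf against 459 at 5.5 dpf) and cebpb within it (870.0 CPM at 7.5 dpf against 579 at 5.5 dpf). The hepcidin gene ENSDARG00000053227, for an iron-regulating peptide that inflammation raises in mammals, stood at 1051 CPM at 7.5 dpf against 1979.7 at 5.5 dpf. It was at 169 and 314 CPM in wild type at 7.5 and 5.5 dpf, below both mutant values. It was named after its values were seen.

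Apolipoprotein genes split. Of 12 kept members, 5 were 2-fold lower and 1 was higher (median −0.56 in the mutant, −0.59 in wild type over 11 members). The most abundant, apoa2, had 9696 CPM at 7.5 dpf against 25256 at 5.5 dpf, and the gene described as apolipoprotein A-I-2 (ENSDARG00000086583), which is not on the list or in its counts, had 9559 CPM at 7.5 dpf against 20589.5 at 5.5 dpf. The lowest ratio belonged to apob, which encodes the structural protein of very low density lipoproteins, at 11.3 CPM at 7.5 dpf against 145 at 5.5 dpf and 280.3 and 421 CPM in wild type at 7.5 and 5.5 dpf. The mutant level of apob at 7.5 dpf was thus the lowest of the 4 libraries. The gene that was higher was apoeb, an apolipoprotein E gene also made by macrophages, with 1751 CPM at 7.5 dpf against 229 at 5.5 dpf (7.66-fold, 7.48 to 7.84), while wild type held 102 and 99.3 CPM at 7.5 and 5.5 dpf. The kept complement genes, parts of a plasma defence cascade, had no single direction, with 2 higher and 2 lower of 11 (median 0.16). Of the 21 listed members, 7 more reached 10 CPM at 5.5 dpf alone and 2 at 7.5 dpf alone, so that more of those left out fell below the minimum than rose above it. Factor D (cfd), a protease of the alternative pathway, had 1782 CPM at 7.5 dpf against 203 at 5.5 dpf (8.79-fold), and factor B (cfb), its substrate, had 242 CPM at 7.5 dpf against 789 at 5.5 dpf (3.26-fold lower). In wild type cfd had 498 CPM at 7.5 dpf and 182 CPM at 5.5 dpf, so that it was higher at the later stage in both genotypes.

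Nuclear genes of the respiratory chain and ATP synthase, which make ATP from the oxidation of nutrients in mitochondria, were lower at 7.5 dpf in nearly every member. Of 69 kept members, 67 had a ratio below 0 and 2 above, 32 were 2-fold lower and 0 were 2-fold higher, and the median was −0.95. The same list was also lower in wild type, at −0.58 over 63 members, with 14 of them 2-fold lower. Complex I, which takes electrons from NADH, had 15 of 27 subunits 2-fold lower (median −1.10), and ATP synthase had 10 of 19 (median −1.15). In complexes III and IV the counts were 2 of 7 and 3 of 11, with medians of −0.76 and −0.90. Among single subunits cox6b1, of complex IV, had 39.4 CPM at 7.5 dpf against 336 at 5.5 dpf (8.52-fold lower, 8.02 to 9.05), and sdha, the flavoprotein of complex II, had 49.98 CPM at 7.5 dpf against 351 at 5.5 dpf. The complex I subunit gene ndufs4 had 58.9 CPM at 7.5 dpf against 324 at 5.5 dpf and ndufb8 had 75.4 CPM at 7.5 dpf against 378 at 5.5 dpf. The most abundant members, cox4i1 and atp5mc1, had 728 and 719 CPM at 7.5 dpf against 1944 and 2164 CPM at 5.5 dpf.

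The 13 protein genes of the mitochondrial genome, which encode other subunits of the same complexes, all stayed within 2-fold. Their median was −0.29, and they summed to 61834 CPM at 7.5 dpf and 60689.5 CPM at 5.5 dpf. Of these, mt-co1 had 19350.3 CPM at 7.5 dpf against 14922 at 5.5 dpf and mt-cyb had 18327 CPM at 7.5 dpf against 17783 at 5.5 dpf. Nuclear genes whose Description names a mitochondrial product were lower more often than all genes: of 322, 109 were 2-fold lower and 30 higher (median −0.66), beside 16.8% and 22.9% of all 4064. Mitochondrial ribosomal proteins, which translate the mitochondrial genome, were closer to the whole set, with 8 lower and 5 higher of 46 (median −0.22).

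The pathways that feed electrons into the chain were lower as well. Of 19 tricarboxylic acid cycle genes, 8 were 2-fold lower and 2 higher, with a median of −0.47 in the mutant and −0.46 in wild type. The succinyl-CoA ligase subunit gene suclg1 had 412 CPM at 7.5 dpf against 1390.2 at 5.5 dpf and malate dehydrogenase (mdh2) had 281 CPM at 7.5 dpf against 759.8 at 5.5 dpf. The 2 that were higher were ogdha, of the oxoglutarate dehydrogenase complex (90.7 CPM at 7.5 dpf against 26.4 at 5.5 dpf), and idh3b, of isocitrate dehydrogenase (117 CPM at 7.5 dpf against 57.3 at 5.5 dpf). Fatty acid oxidation genes had a median of −0.92 in the mutant, with 8 of 20 lower, and 19 of 20 below 0. Their median in wild type was −0.59 over 20 members, with 5 of them 2-fold lower. The acyl-CoA dehydrogenase genes acadm and acadl, for medium and long chains, had 195 and 38.9 CPM at 7.5 dpf against 1011 and 247 CPM at 5.5 dpf. Of this list, cpt1b alone was 2-fold higher, a carnitine palmitoyltransferase gene that controls entry of fatty acids into mitochondria (137 CPM at 7.5 dpf against 35.0 at 5.5 dpf).

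Sugar metabolism genes were lower more often than higher. Of 14 genes, 7 were 2-fold lower and 2 higher, with a median of −1.02 in the mutant and −0.10 in wild type over 13 members. Glyceraldehyde-3-phosphate dehydrogenase (gapdh) had 3121 CPM at 7.5 dpf against 10412 at 5.5 dpf (3.34-fold lower, 3.31 to 3.36), while wild type held 18982 and 17450.2 CPM at 7.5 and 5.5 dpf. The gluconeogenic gene pck1 had 1884 CPM at 7.5 dpf against 4219 at 5.5 dpf, and g6pc1a.1, for the enzyme that releases glucose, had 44.8 CPM at 7.5 dpf against 169.9 at 5.5 dpf. Pyruvate kinase of liver (pklr) was higher, with 828 CPM at 7.5 dpf against 286 at 5.5 dpf, and wild type held 6538 CPM at 7.5 dpf and 1623 CPM at 5.5 dpf, so that this gene was higher at the later stage in both genotypes. The other gene that was 2-fold higher was pfkfb3, for a regulator of phosphofructokinase (66.5 CPM at 7.5 dpf against 28.2 at 5.5 dpf).

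Amino acid breakdown genes had medians of opposite sign in the 2 genotypes. In the mutant 7 of 26 were lower and 4 higher with a median of −0.69, whereas the wild-type median was 0.31 over 25 members. The alanine transaminase gene gpt had 104 CPM at 7.5 dpf against 406 at 5.5 dpf, and ftcd, of histidine breakdown, had 60.2 CPM at 7.5 dpf against 224 at 5.5 dpf. Tyrosine aminotransferase (tat) and tryptophan dioxygenase (tdo2b), the entry enzymes for those 2 amino acids and known glucocorticoid-responsive genes in mammalian liver, were higher. The gene tat had 339 CPM at 7.5 dpf against 74.7 at 5.5 dpf and tdo2b had 142 CPM at 7.5 dpf against 40.3 at 5.5 dpf, and in wild type they had 505 and 497 CPM at 7.5 dpf against 61.8 and 56.2 CPM at 5.5 dpf. In the methionine and one-carbon cycle 4 of 13 were lower and 1 was higher (median −0.72). Betaine-homocysteine methyltransferase (bhmt), abundant in liver, had 806 CPM at 7.5 dpf against 4345 at 5.5 dpf (5.39-fold lower), and cbsb, of cystathionine synthesis, was the higher one (129 CPM at 7.5 dpf against 50.2 at 5.5 dpf).

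Detoxification genes included the lowest ratio of all 4064 genes. The gene described as cytochrome P450 1A1 (ENSDARG00000026039), an enzyme induced through the aryl hydrocarbon receptor, had 62.7 CPM at 7.5 dpf against 1362 at 5.5 dpf (21.7-fold lower, 20.7 to 22.8). Wild-type cells held 742 and 1006 CPM at 7.5 and 5.5 dpf. It has no symbol in the table used and was named after its values were seen. Among 12 genes with a cyp symbol, 2 were higher and 2 lower (median −0.01), with cyp2n13 at 55.4 CPM at 7.5 dpf against 246 at 5.5 dpf and cyp3c3 at 84.2 CPM at 7.5 dpf against 20.9 at 5.5 dpf. Conjugating and glutathione enzymes had 7 of 17 lower and 2 higher (median −0.59). The glucuronosyltransferase gene ugt1a1, which conjugates bilirubin, had 153 CPM at 7.5 dpf against 882 at 5.5 dpf, and gclm, of glutathione synthesis, was higher with 216 CPM at 7.5 dpf against 93.9 at 5.5 dpf. Of 5 kept genes of bile acid synthesis and transport, the synthesis gene hsd3b7 and abcc2, for an exporter into bile, had 12.7 and 223 CPM at 7.5 dpf against 105 and 835 CPM at 5.5 dpf. The bile acid receptor gene nr1h4 went the other way, with 137 CPM at 7.5 dpf against 15.3 at 5.5 dpf. For abcc2 wild type held more at 7.5 dpf (701 CPM) than at 5.5 dpf (311 CPM), opposite to the mutant.

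Cholesterol synthesis genes were lower more often than higher. The list had 5 of 8 members lower and 1 higher (median −1.40). The gene insig1, for a protein that holds back sterol regulatory element-binding proteins and is itself their target, had 49.98 CPM at 7.5 dpf against 855 at 5.5 dpf (17.1-fold lower, 16.2 to 18.04). Methylsterol monooxygenase 1 (msmo1) had 31.3 CPM at 7.5 dpf against 418 at 5.5 dpf, and fdps, for farnesyl pyrophosphate synthase, and ebp, for a sterol isomerase, had 78.0 and 29.2 CPM at 7.5 dpf against 216 and 94.8 CPM at 5.5 dpf. In wild type insig1 had 0.325 CPM at 7.5 dpf and 339 CPM at 5.5 dpf, msmo1 had 136 and 1907 CPM, and fdps had 0 and 653 CPM. Both genotypes thus held less of these 3 transcripts at the later stage. The gene that was higher in the mutant was idi1 (75.8 CPM at 7.5 dpf against 26.5 at 5.5 dpf), an isomerase of the same pathway, which in wild type stood at 0.298 CPM at 7.5 dpf and 183 CPM at 5.5 dpf.

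Of 8 kept genes of fatty acid and triglyceride synthesis 4 were lower and 1 was higher (median −0.90 in the mutant, 0.01 in wild type). Diacylglycerol acyltransferase 2 (dgat2), which makes triglycerides, had 36.3 CPM at 7.5 dpf against 107 at 5.5 dpf, and chpt1, of phosphatidylcholine synthesis, had 63.1 CPM at 7.5 dpf against 227 at 5.5 dpf. The lipid droplet coat genes parted: plin2 had 33.3 CPM at 7.5 dpf against 87.0 at 5.5 dpf and plin3 had 105 CPM at 7.5 dpf against 32.5 at 5.5 dpf. In wild type plin2 had 21.0 CPM at 7.5 dpf and 93.4 CPM at 5.5 dpf, the same direction as in the mutant, while dgat2 stood at 177 and 181 CPM.

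Defence against oxidants had 7 of 20 genes lower and 3 higher (median −0.34 in the mutant, 0.05 in wild type over 20 genes). The mitochondrial members sod2, for a superoxide dismutase, and prdx3, for a peroxide reductase, had 35.21 and 77.0 CPM at 7.5 dpf against 211 and 421 CPM at 5.5 dpf. Glutathione reductase (gsr), which regenerates glutathione, was higher, with 226 CPM at 7.5 dpf against 111 at 5.5 dpf. In wild type sod2 had 215 and 287 CPM at 7.5 and 5.5 dpf, so that the mutant at 7.5 dpf was the lowest of the 4 libraries. Of 6 kept iron genes 2 were lower, tfa and the plasma copper oxidase gene cp (82.1 CPM at 7.5 dpf against 205 at 5.5 dpf), and 1 was higher, the ferritin gene fthl31 (45.3 CPM at 7.5 dpf against 18.9 at 5.5 dpf). The abundant ferritin heavy chain gene fth1a, of iron storage, was level with 706 CPM at 7.5 dpf against 734 at 5.5 dpf.

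Genes of the endoplasmic reticulum and of secretion were moderately lower. Of 23 chaperone and unfolded protein response genes, 7 were lower and 1 was higher (median −0.79). Over the 14 of them measurable in wild type the median was −0.24 in the mutant and −0.0005 in wild type. The disulfide isomerase gene pdia4 had 125 CPM at 7.5 dpf against 582 at 5.5 dpf and the chaperone gene hyou1 had 89.1 CPM at 7.5 dpf against 265 at 5.5 dpf. The stress transcription factor gene ddit3, which follows prolonged stress of this organelle in other settings, was within 2-fold at 305 CPM at 7.5 dpf against 159.9 at 5.5 dpf, as was xbp1 at 634 CPM at 7.5 dpf against 559.9 at 5.5 dpf. The single higher gene, edem1, encodes a factor that sends misfolded proteins to degradation (94.0 CPM at 7.5 dpf against 45.1 at 5.5 dpf). In the secretory pathway 12 of 41 were lower and 3 higher (median −0.39). Over the 34 of these measurable in wild type the medians were alike, at −0.41 in the mutant and −0.38 in wild type. The cargo receptor gene lman1, which carries clotting factors out of the endoplasmic reticulum in mammals, had 10.3 CPM at 7.5 dpf against 97.8 at 5.5 dpf.

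Cytosolic ribosomal protein genes stayed close to equal levels. Of 75 genes on the cytosolic ribosomal protein list, 73 lay within 2-fold and the median was 0.02, which becomes −0.11 when the median of all genes is set to 0. The 1 higher gene, rps19bp1 (64.5 CPM at 7.5 dpf against 14.1 at 5.5 dpf), entered by the pattern of its symbol and encodes a binding partner of a ribosomal protein rather than one itself. The 1 lower gene was faub (34.4 CPM at 7.5 dpf against 93.9 at 5.5 dpf), whose product is cleaved into a small-subunit protein and a ubiquitin-like protein. Without rps19bp1 the SD of the log2 ratio over the 74 genes was 0.35 in the mutant and 0.19 in wild type, against 1.24 over all 4064 mutant ratios. The median was 0.04 over 40 genes of the large subunit and −0.02 over 32 genes of the small one. The 74 genes took 5.35% of reads at 7.5 dpf and 4.89% at 5.5 dpf. Translation factors were spread to both sides, with 4 higher and 6 lower of 53 (median 0.23), and so were proteasome subunits, with 4 and 4 of 38 (median 0.01, or −0.12 with the median of all genes at 0). The proteasome genes psmb3 and psmc3 were lower (171 and 27.4 CPM at 7.5 dpf against 362 and 94.3 CPM at 5.5 dpf), and psme1, of the activator that immune signals induce, was higher (96.5 CPM at 7.5 dpf against 25.9 at 5.5 dpf). Aminoacyl-tRNA synthetase genes, which charge tRNAs, were split widely: rars1, for arginine, had 11.03 CPM at 7.5 dpf against 152 at 5.5 dpf (13.8-fold lower) and gars1, for glycine, had 153 CPM at 7.5 dpf against 18.7 at 5.5 dpf (8.16-fold higher), with 6 lower and 2 higher of 13. The median of these 13 was −0.52, and its sign depended on the minimum: it was 0.081 at a minimum of 20 CPM and 0.53 at a minimum of 50 CPM.

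The ubiquitin list, with genes for ubiquitin-like modifiers and their enzymes, had 8 of 29 kept members higher (27.6%) and 0 lower, although its median was −0.01. Left out were 5 members at 10 CPM at 5.5 dpf alone and 3 at 7.5 dpf alone. Of 95 kept genes whose Description names ubiquitin, 22 were higher and 16 lower. These shares, 23.2% and 16.8%, were near the 22.9% and 16.8% of all genes. Several of the higher members belonged to SUMO, a modifier of nuclear proteins: sumo3a had 267 CPM at 7.5 dpf against 71.8 at 5.5 dpf, sumo3b had 85.4 CPM at 7.5 dpf against 25.4 at 5.5 dpf and the conjugating enzyme gene ube2ib had 178 CPM at 7.5 dpf against 57.9 at 5.5 dpf. In wild type ube2ib had 15.1 and 32.5 CPM and sumo3a 119 and 128 CPM at 7.5 and 5.5 dpf, so that neither was 2-fold higher there. Histone and chromatin genes had 9 of 38 higher and 8 lower (median 0.04, or −0.08 with the median of all genes at 0). These are 23.7% and 21.1%, near the shares over all genes. Among the lower ones were the demethylase gene kdm6b (33.5 CPM at 7.5 dpf against 89.0 at 5.5 dpf) and the remodeller gene chd7 (17.0 CPM at 7.5 dpf against 69.9 at 5.5 dpf). Solute carriers, which move ions and nutrients across membranes, were even, with 8 higher and 8 lower of 53 (median 0.14). Amino acid carriers lay at both ends: slc38a5b had 199 CPM at 7.5 dpf against 48.3 at 5.5 dpf, slc38a2 had 55.3 CPM at 7.5 dpf against 13.9 at 5.5 dpf and slc43a2 had 143 CPM at 7.5 dpf against 41.6 at 5.5 dpf, while slc38a4, described further on, was among the lowest. The glucose-6-phosphate carrier gene slc37a4, a partner of glucose-6-phosphatase, was lower with 122 CPM at 7.5 dpf against 545 at 5.5 dpf.

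**Figure D2:**
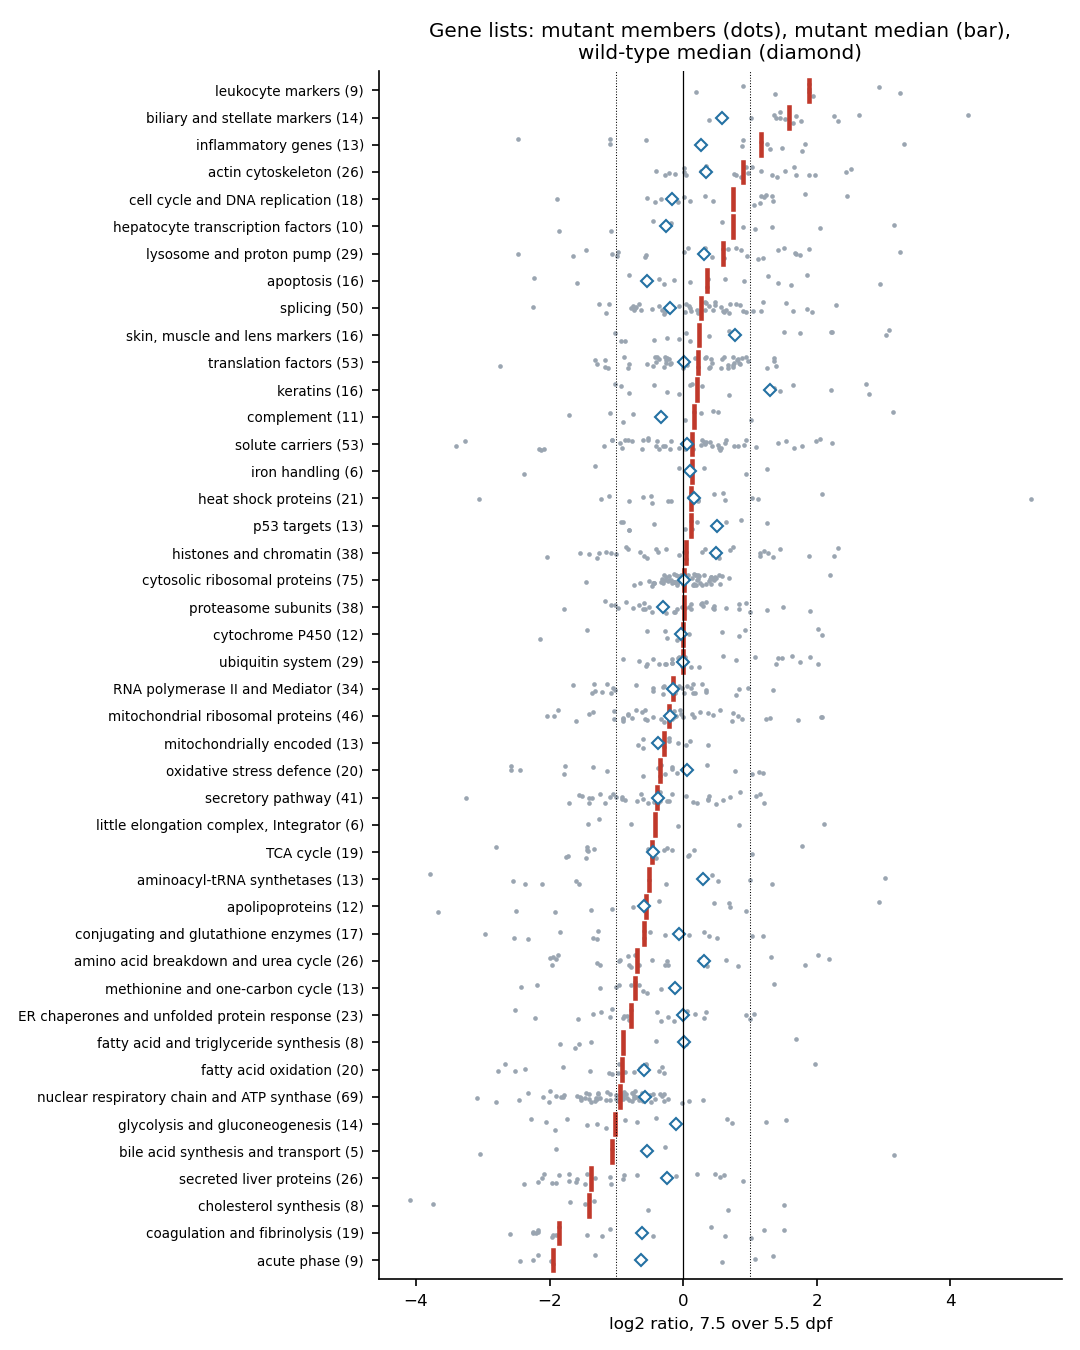
Log2 ratio of 7.5 over 5.5 dpf for the members of the 44 lists with at least 5 kept genes, ordered by the mutant median, with the number of members in parentheses. Grey dots are genes in the mutant, red bars mutant medians, and open diamonds wild-type medians over the members at 10 CPM or more in all 4 libraries, drawn where there were at least 5. Medians run between 1.88 for leukocyte markers and −1.95 for the acute phase list.

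Markers of bile ducts and of stellate cells, which are the collagen-producing pericytes of the liver, were higher at 7.5 dpf in nearly every kept member. Of 14 genes on this list, 13 were 2-fold higher and 0 lower (median 1.58), against 3 higher and 1 lower of 10 measurable in wild type. The list also held ifitm1, described as interferon-induced transmembrane protein 3, with 1127 CPM at 7.5 dpf against 236 at 5.5 dpf (4.77-fold). In wild type ifitm1 had 219 CPM at 7.5 dpf against 30.9 CPM at 5.5 dpf (7.07-fold). The type I collagen gene col1a2 had 238 CPM at 7.5 dpf against 12.4 at 5.5 dpf (19.3-fold, 17.5 to 21.2), and col5a1, of type V collagen, had 288 CPM at 7.5 dpf against 46.7 at 5.5 dpf. The actin-binding gene tagln (ENSDARG00000033466), described as transgelin-2, had 324 CPM at 7.5 dpf against 65.1 at 5.5 dpf. Another ID with this symbol, ENSDARG00000045408, was under the minimum, with 9.81 CPM at 7.5 dpf against 6.49 CPM at 5.5 dpf. Wild type held 110.2 and 78.5 CPM of col1a2 and 0 and 14.3 CPM of col5a1 at 7.5 and 5.5 dpf, below the mutant at 7.5 dpf. Simple epithelial keratins, which both hepatocytes and bile duct cells can express in mammals, were higher too: krt8 had 2608 CPM at 7.5 dpf against 834 at 5.5 dpf. Of 7 kept genes with a collagen symbol, 6 were 2-fold higher, and their sum was 1259.7 CPM at 7.5 dpf against 263 CPM at 5.5 dpf in the mutant and 162 CPM at 7.5 dpf against 294 CPM at 5.5 dpf in wild type.

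Markers of other cells moved with these genes. The 9 matched stellate and fibroblast marker IDs, some of which are the genes just named, summed to 1276 CPM at 7.5 dpf against 320.3 CPM at 5.5 dpf in the mutant and 225 CPM at 7.5 dpf against 169 CPM at 5.5 dpf in wild type. Of these 9 none had 0 reads at 7.5 dpf and 1 had 0 reads at 5.5 dpf in the mutant. The ID ENSDARG00000010008 of vim, under the minimum, went the other way, with 1.25 CPM at 7.5 dpf against 6.74 CPM at 5.5 dpf. Those of bile ducts summed to 4125 CPM at 7.5 dpf against 1737 CPM at 5.5 dpf in the mutant and to 1551 CPM at 7.5 dpf against 968 CPM at 5.5 dpf in wild type. Those of exocrine pancreas summed to 742 CPM at 7.5 dpf against 42.3 CPM at 5.5 dpf in the mutant and to 2308 CPM at 7.5 dpf against 494 CPM at 5.5 dpf in wild type, so that both sums were higher at the later stage in both genotypes and the exocrine pancreas sum was higher in wild type than in the mutant at both stages. Those of muscle summed to 1217 CPM at 7.5 dpf against 303 CPM at 5.5 dpf in the mutant and, with the lower sum at the later stage, to 455 CPM at 7.5 dpf against 661 CPM at 5.5 dpf in wild type. Of the 11 exocrine pancreas IDs in the mutant, 2 had no reads at 7.5 dpf and 7 had none at 5.5 dpf. The islet hormone gene gcga, for glucagon, had 314 CPM at 7.5 dpf against 17.8 at 5.5 dpf in the mutant and no reads in either wild-type library, while ins, for insulin, had 12.11 CPM at 7.5 dpf and no reads at 5.5 dpf. Endothelial markers were near 0, at 3.44 and 1.46 CPM in sum, and the intestine and skin sums were lower at 7.5 dpf, at 13.2 CPM at 7.5 dpf against 73.9 CPM at 5.5 dpf and 15862 CPM at 7.5 dpf against 23342 CPM at 5.5 dpf. Among muscle genes ckmb, for creatine kinase, had 99.0 CPM at 7.5 dpf against 11.6 at 5.5 dpf, and pvalb1, for a calcium buffer of fast fibres, had 536 CPM at 7.5 dpf against 114 at 5.5 dpf. Wild type held 63.7 and 81.0 CPM of ckmb at 7.5 and 5.5 dpf, so that for this gene the mutant at 5.5 dpf was the lowest library. As lists of kept genes, skin, muscle and lens markers had 6 of 16 higher and 1 lower, and intestine markers 1 and 2 of 4. The part of other cells in the ratios was not tested. Without the 29 kept genes on marker lists of other cells, 913 genes were 2-fold higher and 681 lower of 4035. Leaving out 29 genes can move these counts by 29 at most, and other genes of such cells stay in. These counts therefore say nothing on the part of other cells.

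**Figure D3:**
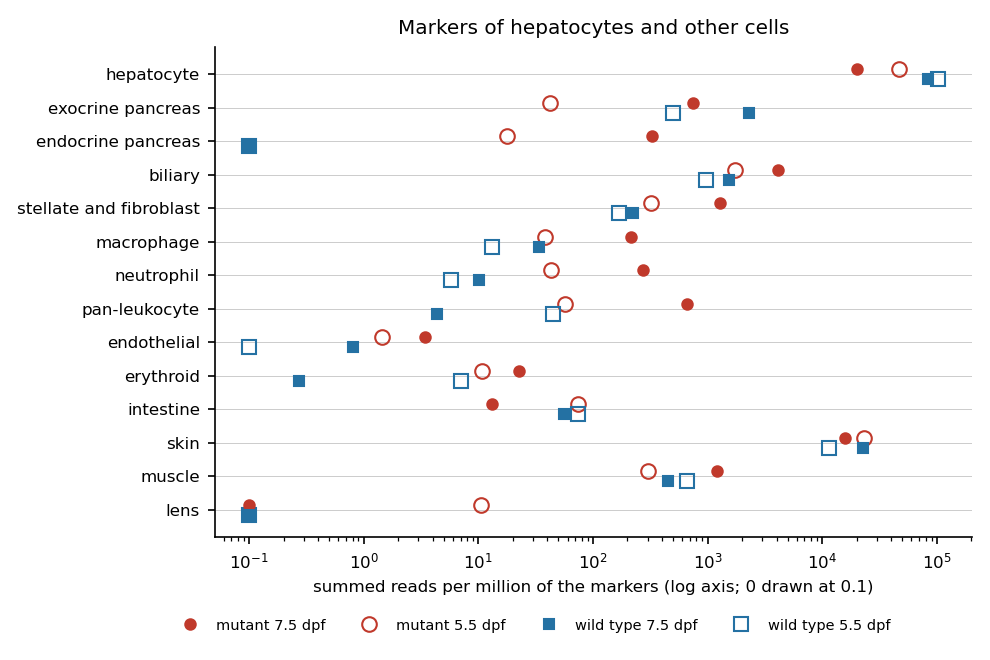
Summed level of the marker genes of 14 cell types in the 4 libraries, in CPM on a log axis, with sums of 0 drawn at 0.1. Filled circles are mutant cells at 7.5 dpf, open circles mutant cells at 5.5 dpf, filled squares wild type at 7.5 dpf and open squares wild type at 5.5 dpf. In the mutant the hepatocyte sum is 20049 at 7.5 dpf and 47075 at 5.5 dpf, while the pan-leukocyte sum is 660.2 at 7.5 dpf and 57.2 at 5.5 dpf.

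Actin cytoskeleton genes were higher in many members and 2-fold lower in none of those kept: 11 of 26 were higher and the median was 0.90 in the mutant and 0.34 in wild type over 23 members. Cytoplasmic actin (actb2) had 4629 CPM at 7.5 dpf against 1754 at 5.5 dpf, and pfn1, described as profilin-2, which loads actin monomers onto filaments, had 2474 CPM at 7.5 dpf against 458 at 5.5 dpf (5.397-fold, 5.31 to 5.49). The thymosin gene tmsb4x, whose product sequesters actin monomers, had 525 CPM at 7.5 dpf against 91.9 at 5.5 dpf, and filamin A (flna), a crosslinker, had 508 CPM at 7.5 dpf against 129.6 at 5.5 dpf. The kept subunits of the Arp2/3 complex, which branches filaments, were mostly within 2-fold, with 1 of 7 higher. The subunit gene arpc1b was not kept, being under the minimum at 5.5 dpf, and had 218 CPM at 7.5 dpf against 6.05 CPM at 5.5 dpf. It is also among the pan-leukocyte markers summed further on. Keratins did not share 1 direction, with 6 of 16 higher and 1 lower: krt91 had 1868 CPM at 7.5 dpf against 403 at 5.5 dpf, while krt4, the most abundant, had 8154 CPM at 7.5 dpf against 15476 at 5.5 dpf and cyt1l had 1421 CPM at 7.5 dpf against 2885 at 5.5 dpf.

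Leukocyte and inflammatory genes were mostly higher in the mutant at 7.5 dpf. Of 9 kept leukocyte genes 7 were 2-fold higher and 0 lower (median 1.88), of 44 on the list in the series. The proteoglycan gene srgn, of blood cell granules, had 246 CPM at 7.5 dpf against 32.3 at 5.5 dpf, and ctss2.1, for the protease cathepsin S of antigen-presenting cells, had 143 CPM at 7.5 dpf against 15.1 at 5.5 dpf. In wild type srgn had 0.108 and 5.74 CPM at 7.5 and 5.5 dpf. Of 13 kept inflammatory genes 7 were higher and 3 lower (median 1.163), beside 22.9% and 16.8% of all genes. The chemokine gene cxcl18b had 499 CPM at 7.5 dpf against 50.3 at 5.5 dpf (9.92-fold, 9.45 to 10.4), and wild type held 4.79 and 19.7 CPM at 7.5 and 5.5 dpf. The gene described as interleukin-1 beta (ENSDARG00000005419), a cytokine released from activated macrophages, had 205 CPM at 7.5 dpf against 23.4 at 5.5 dpf and no reads in either wild-type library. It was named after its values were seen. The tumor necrosis factor gene tnfb was higher by 2.46-fold (193 CPM at 7.5 dpf against 78.7 at 5.5 dpf), and nfkbiaa, for an inhibitor of NF-kB that NF-kB itself induces, had 605 CPM at 7.5 dpf against 254 at 5.5 dpf. The 3 members that were lower were caspb, for an inflammatory caspase (25.6 CPM at 7.5 dpf against 142 at 5.5 dpf), pycard, for the inflammasome adaptor (68.8 CPM at 7.5 dpf against 148 at 5.5 dpf), and nfkbib (22.1 CPM at 7.5 dpf against 47.3 at 5.5 dpf). Of the interferon response list 3 genes were kept, and the antigen presentation genes b2ml and mhc1zba were higher, at 136 and 199 CPM at 7.5 dpf against 24.7 and 79.6 CPM at 5.5 dpf. In wild type these 2 had 88.1 and 132 CPM at 7.5 dpf against 47.9 and 50.2 CPM at 5.5 dpf, so that mhc1zba was 2-fold higher in both genotypes and b2ml within 2-fold in wild type.

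Marker sums of white blood cells, taken over all listed genes and not over the kept ones alone, were also higher at 7.5 dpf. Pan-leukocyte markers summed to 660.2 CPM at 7.5 dpf and 57.2 CPM at 5.5 dpf in the mutant, and to 4.36 and 44.98 CPM in wild type at 7.5 and 5.5 dpf. Neutrophil markers summed to 273 and 42.7 CPM at 7.5 and 5.5 dpf in the mutant, against 10.2 and 5.76 CPM in wild type, and macrophage markers to 214 and 38.1 CPM, against 33.8 and 13.3 CPM. The neutrophil sum in the mutant at 7.5 dpf was made up of ncf1 (110 CPM), mmp13a (92.3 CPM) and mmp9 (70.9 CPM). Of these, mmp13a is also on the inflammatory list, so that this sum and that list are not separate observations. In the mutant, 1 of 6 pan-leukocyte, 2 of 5 neutrophil and 3 of 14 macrophage marker IDs had 0 reads at 7.5 dpf, against 2, 3 and 7 at 5.5 dpf. The actin-bundling gene lcp1 had 71.9 CPM and no reads, and coro1a had 146 CPM and 0.275 CPM, each at 7.5 and 5.5 dpf. Among macrophage markers, the scavenger receptor gene marco had 67.9 CPM at 7.5 dpf and no reads at 5.5 dpf. The macrophage marker c1qa went the other way in the mutant, with no reads at 7.5 dpf against 13.1 CPM at 5.5 dpf. The kept mfap4 ID ENSDARG00000090557 was within 2-fold, with 13.9 CPM at 7.5 dpf against 12.19 CPM at 5.5 dpf. The common leukocyte antigen gene ptprc and the neutrophil gene npsn were listed at 0 in all 4 libraries, and lyz had no reads at either mutant stage. The mutant marker sums thus stood higher at the same stage as the inflammatory genes, and the part of white blood cells in the inflammatory ratios was not tested.

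On the lysosome and proton pump list 9 of 29 were higher and 4 lower (median 0.59), or 31.0% and 13.8%, beside the 22.9% and 16.8% of all genes. Over the 20 members measurable in wild type the median was 0.46 in the mutant and 0.31 in wild type, and the median of the difference was −0.11. All 8 kept cathepsin genes had a ratio above 0, and 5 were 2-fold higher. Together they stood at 2812 CPM at 7.5 dpf against 1002 CPM at 5.5 dpf. The most abundant, ctsla, had 1109 CPM at 7.5 dpf against 416 at 5.5 dpf, and ctsb had 564 CPM at 7.5 dpf against 177 at 5.5 dpf. The cholesterol exporter gene npc1 and the lipase gene lipa, both needed for lysosomal cholesterol use, were lower (49.5 and 63.1 CPM at 7.5 dpf against 275 and 197 CPM at 5.5 dpf).

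Cell cycle genes had 9 of 18 kept members higher and 1 lower, or 50% and 5.56%, beside 22.9% and 16.8% of all genes. Their median was 0.75 in the mutant. Over the 8 members measurable in wild type it was 0.84 in the mutant and −0.17 in wild type. These counts leave out 9 members that reached 10 CPM at 5.5 dpf alone and 5 that did so at 7.5 dpf alone, so the list had no single direction. The replicative helicase gene mcm6 had 81.1 CPM at 7.5 dpf against 14.9 at 5.5 dpf and the proliferation antigen gene mki67 had 42.4 CPM at 7.5 dpf against 11.97 at 5.5 dpf, and wild type held 0 and 3.17 CPM of mki67 at 7.5 and 5.5 dpf. The sliding clamp gene pcna was within 2-fold at 273 CPM at 7.5 dpf against 201 at 5.5 dpf, and 2 of the higher members are tubulin genes, tubb4b among them (541 CPM at 7.5 dpf against 214 at 5.5 dpf), which serve more than division. Of 16 apoptosis genes 5 were higher and 2 lower. The killer gene bik, whose product promotes cell death, had 104 CPM at 7.5 dpf against 13.5 at 5.5 dpf, and birc2, for an inhibitor of cell death, had 159 CPM at 7.5 dpf against 43.9 at 5.5 dpf. The survival gene mcl1a was higher in both genotypes, with 1140.0 CPM at 7.5 dpf against 426 at 5.5 dpf in the mutant and 1038 CPM at 7.5 dpf against 449 CPM at 5.5 dpf in wild type. The mitochondrial gene aifm1, for apoptosis-inducing factor, was lower (27.7 CPM at 7.5 dpf against 83.7 at 5.5 dpf), as was dap (87.9 CPM at 7.5 dpf against 413 at 5.5 dpf). Of 13 genes on the p53 list 12 lay within 2-fold (median 0.12, or −0.01 with the median of all genes at 0), with cdkn1a, for a cell cycle inhibitor, at 92.5 CPM at 7.5 dpf against 176 at 5.5 dpf and tp53inp1 as the higher one (97.3 CPM at 7.5 dpf against 40.7 at 5.5 dpf).

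The highest ratio of all 4064 genes belonged to a heat shock protein gene. This was hspb1, whose product, a small heat shock protein, binds unfolded proteins and actin, had 427 CPM at 7.5 dpf against 11.6 at 5.5 dpf (36.9-fold, 33.5 to 40.8), and wild type held 17.99 and 27.7 CPM at 7.5 and 5.5 dpf. Its relative hspb8 had 10.7 CPM at 7.5 dpf against 89.6 at 5.5 dpf, the opposite direction. The inducible gene hsp70.3 had 1346 CPM at 7.5 dpf against 620.5 at 5.5 dpf and the co-chaperone gene dnajb1b had 484 CPM at 7.5 dpf against 115 at 5.5 dpf. The mitochondrial chaperonin genes hspd1 and hspe1 were lower, at 156 and 276 CPM at 7.5 dpf against 365 and 594 CPM at 5.5 dpf. Genes of the cytosolic chaperonin, which folds actin and tubulin, all lay within 2-fold (8 subunits, median 0.19). Over the whole list 4 of 21 were higher and 3 lower (median 0.12, or −0.01 with the median of all genes at 0).

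Genes for hepatocyte transcription factors lay on both sides. Of 10 kept factors 4 were higher and 2 lower (median 0.74), beside 22.9% and 16.8% of all genes. The pioneer factor gene foxa2 had 102 CPM at 7.5 dpf against 24.6 at 5.5 dpf and creb3l3a, for a membrane-bound factor of liver lipid and acute phase genes, had 65.1 CPM at 7.5 dpf against 25.9 at 5.5 dpf. The xenobiotic receptor gene nr1i2 was lower (23.0 CPM at 7.5 dpf against 83.9 at 5.5 dpf). RNA polymerase II and Mediator genes had 9 of 34 lower and 1 higher. The list around the complex that holds Zc3h8 kept 6 of its 31 genes, with ell2, an elongation factor gene of that complex, at 16.8 CPM at 7.5 dpf against 45.2 at 5.5 dpf and snapc4, of the small nuclear RNA activating complex, at 78.9 CPM at 7.5 dpf against 18.3 at 5.5 dpf. Splicing genes had 8 of 50 higher and 4 lower (median 0.27), or 16% and 8%, both below the shares over all genes. Among them tra2a, a splicing regulator, had 154 CPM at 7.5 dpf against 31.5 at 5.5 dpf.

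Annotation of all kept genes gave counts beyond the lists, to be read beside 22.9% higher and 16.8% lower overall. Of 1111 kept genes with the Gene Ontology term nucleus, 286 were 2-fold higher and 136 lower, and of 396 with plasma membrane, 117 and 55. For lysosome the counts were 20 higher and 5 lower of 54. For peroxisome they were 2 and 12 of 31, for mitochondrial inner membrane 10 and 50 of 157, and for endoplasmic reticulum 37 and 71 of 264. For Golgi apparatus they were 49 and 27 of 183, or 26.8% and 14.8%. The peroxisome, the mitochondrial inner membrane and the endoplasmic reticulum thus held more lower than higher genes, the other way round from all genes, while the shares for the nucleus (25.7% and 12.24%) and the Golgi apparatus were near those over all genes. By the words of the Description, kinases had 44 higher and 12 lower of 131, receptors 35 and 13 of 112, and dehydrogenases 12 and 45 of 131.

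Among genes with a symbol that is not a clone name, the 12 highest ratios began with hspb1. After hspb1 came cldni, for a tight junction claudin (756 CPM at 7.5 dpf against 30.04 at 5.5 dpf, 25.2-fold), and cavin2, for a coat protein of caveolae (255 CPM at 7.5 dpf against 11.03 at 5.5 dpf, 23.1-fold). Next to col1a2 stood marcksl1b, for an actin-linked substrate of protein kinase C (793 CPM at 7.5 dpf against 43.0 at 5.5 dpf), fam107b (275 CPM at 7.5 dpf against 14.7 at 5.5 dpf) and the gene with the symbol padi1 and a Description of protein-arginine deiminase type-2 (233 CPM at 7.5 dpf against 12.46 at 5.5 dpf). The last of the 12 were gcga, the cartilage collagen gene col2a1 (171 CPM at 7.5 dpf against 12.3 at 5.5 dpf), the nuclear import gene kpna3 (156 CPM at 7.5 dpf against 11.6 at 5.5 dpf), the vesicle traffic gene rab10 (174 CPM at 7.5 dpf against 13.2 at 5.5 dpf) and scpp5, a gene of tooth and scale mineralization in fish (144 CPM at 7.5 dpf against 11.11 at 5.5 dpf). Of the 12, gcga and scpp5 had no reads in wild type, and padi1 and col2a1 had none in wild type at 7.5 dpf.

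The 12 lowest ratios by the same rule included several genes of lipid handling and transport. Besides insig1, msmo1, apob and rars1 these were ssb, for the La protein that binds new small RNAs (22.6 CPM at 7.5 dpf against 365 at 5.5 dpf), the lipase gene mgll (12.9 CPM at 7.5 dpf against 174 at 5.5 dpf) and asgr1a, for the hepatocyte receptor of desialylated glycoproteins (28.7 CPM at 7.5 dpf against 367 at 5.5 dpf). The rest were the adiponectin receptor gene adipor1 (12.7 CPM at 7.5 dpf against 138 at 5.5 dpf), the junction gene f11r.2 (13.3 CPM at 7.5 dpf against 142 at 5.5 dpf), the mitochondrial carrier gene slc25a11 (18.9 CPM at 7.5 dpf against 199.8 at 5.5 dpf), pum3, for an RNA-binding protein (13.96 CPM at 7.5 dpf against 139.6 at 5.5 dpf), and the amino acid transporter gene slc38a4 (53.7 CPM at 7.5 dpf against 519 at 5.5 dpf). For asgr1a wild type held 506 and 421 CPM at 7.5 and 5.5 dpf, and for slc38a4 951 and 538 CPM, so that the mutant at 7.5 dpf alone was low for both. For ssb, mgll, adipor1 and pum3 the mutant at 5.5 dpf was instead the highest of the 4 libraries: wild type held 30.1 and 45.5 CPM of ssb and 13.2 and 12.6 CPM of adipor1 at 7.5 and 5.5 dpf.

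**Figure D4:**
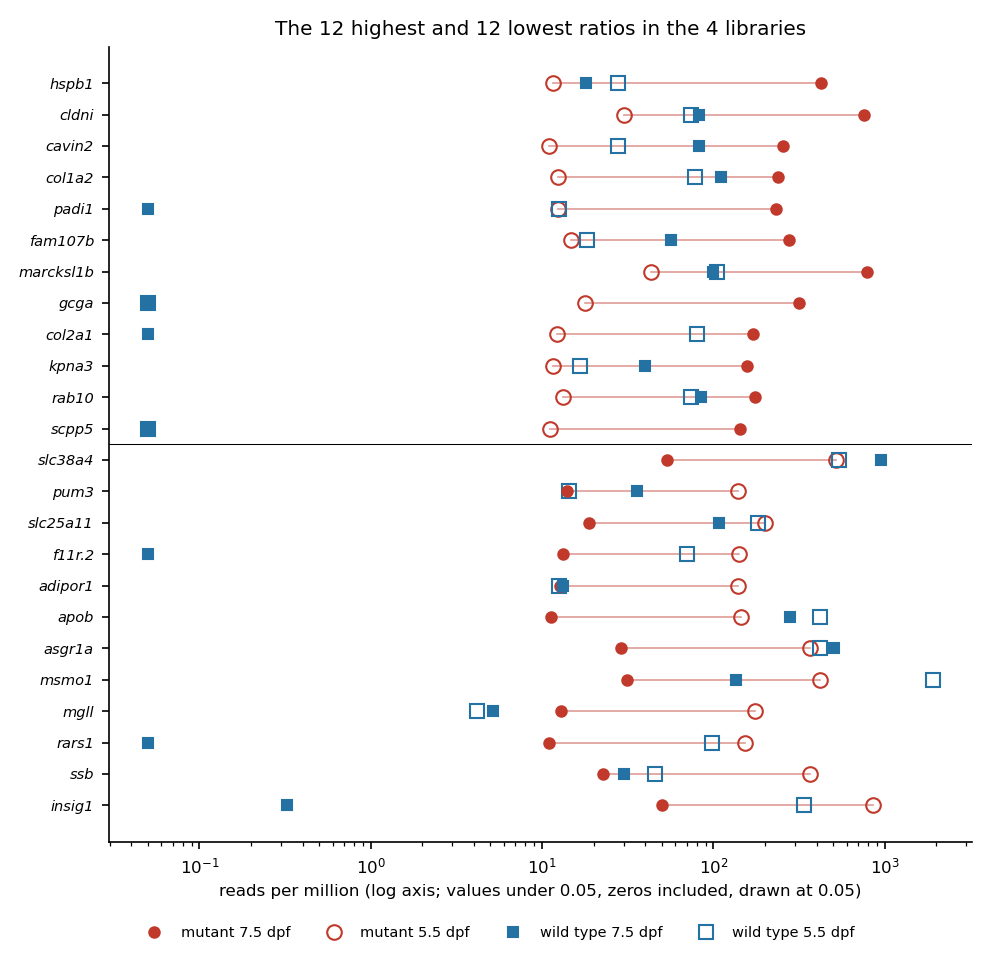
Levels of the genes with the 12 highest (above the line) and the 12 lowest (below it) mutant ratios in each of the 4 libraries, in CPM on a log axis, with values under 0.05 drawn at 0.05. Circles are mutant and squares wild-type cells, filled at 7.5 dpf and open at 5.5 dpf, and a line joins the 2 mutant values. The mutant at 7.5 dpf is the highest of the 4 libraries for each of the upper 12 genes, from hspb1 (427) to scpp5 (144).

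None of the 12 kept genes with the highest levels per gene length was 2-fold higher at 7.5 dpf. The unannotated ENSDARG00000080337, with no symbol or Description, alone took 172129 CPM at 7.5 dpf and 154443 CPM at 5.5 dpf. The 12 most abundant by the mean of the 2 mutant values in RPKM, a level per gene length, mitochondrially encoded genes apart, also held the small-subunit gene rps20 (1966 CPM at 7.5 dpf against 1911 at 5.5 dpf) and the keratin gene krt4, besides fabp10a, apoa2 and gapdh, already described. Of these 12, apoa2, ENSDARG00000086583 and gapdh were 2-fold lower at 7.5 dpf. The unannotated ENSDARG00000070212 and si:dkey-153m14.1 came nearest to being higher, with 12362 and 4194 CPM at 7.5 dpf against 8614 and 2523 CPM at 5.5 dpf.

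The same stages in wild type, with 1 library each, were set beside the mutant over the 2608 genes (64.2% of the 4064) that reached 10 CPM in all 4 libraries. The 2 comparisons share no library. Over these genes the mutant had 501 higher (19.2%) and 501 lower (19.2%), and wild type had 407 higher (15.6%) and 363 lower (13.9%). Pearson's r between the mutant and the wild-type log2 ratio was 0.26 and Spearman's rho 0.26 across genes, which are not independent replicates. Of the 501 genes higher in the mutant, 127 were 2-fold higher in wild type as well, which is 25.3% of the mutant's and 31.2% of the wild type's higher genes. Of the 501 lower genes 108 were lower in wild type too (21.6% and 29.8%). Another 42 genes were higher in the mutant and lower in wild type, and 44 were lower in the mutant and higher in wild type. The mutant ratio exceeded the wild-type ratio by 1 or more for 563 genes and fell short of it by 1 or more for 577. Whether any of these differences is larger than the spread between libraries of 1 group cannot be tested with 1 library each.

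**Figure D5:**
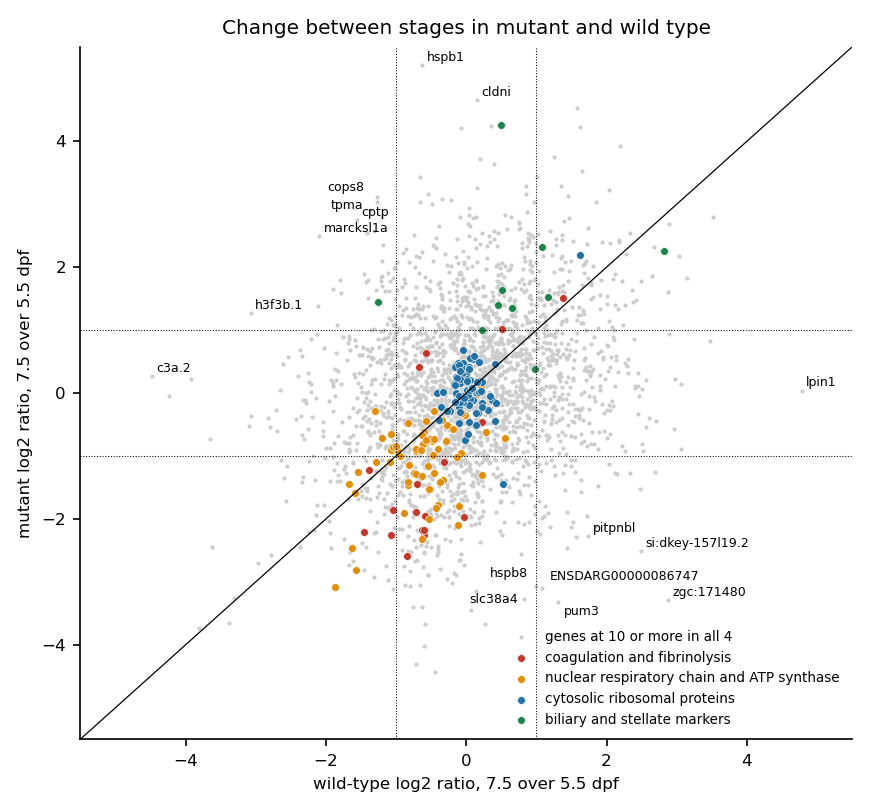
Log2 ratio of 7.5 over 5.5 dpf in mutant cells (vertical axis) and in wild-type cells (horizontal axis) for the 2608 genes at 10 CPM or more in all 4 libraries, with 4 lists in colour and the 8 largest differences in each direction labelled. The diagonal marks equal ratios and the dotted lines 2-fold. Ribosomal protein genes gather near 0 on both axes, and clotting genes lie lower on the mutant axis (median −1.88) than on the wild-type axis (−0.62).

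Beside wild type, the lists fell into groups with similar and with unlike medians. For secreted liver proteins the mutant ratio lay below the wild-type ratio for 23 of 26 genes, with a median difference of −0.89, and for clotting genes for 13 of 18 (−0.80). Fibrinogen gene fgg, for example, stood at 1343 CPM at 7.5 dpf against 6043 CPM at 5.5 dpf in the mutant and at 2656 CPM at 7.5 dpf against 4123 CPM at 5.5 dpf in wild type. Respiratory chain genes were lower at 7.5 dpf in both genotypes, with a median difference of −0.33 and 49 of 63 genes further down in the mutant. Tricarboxylic acid cycle genes had a median of −0.47 in the mutant and −0.46 in wild type, and apolipoprotein genes −0.75 and −0.59. Keratins had a median of 0.14 in the mutant and 1.31 in wild type over 15 genes, of which 9 were 2-fold higher in wild type. The gene krt4 had 14404 CPM at 7.5 dpf against 7903 CPM at 5.5 dpf in wild type, opposite to its mutant direction.

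Among single genes, the largest positive differences were those of hspb1 (5.83 on the log2 scale) and c3a.2, a complement C3 gene that was level in the mutant (60.0 CPM at 7.5 dpf against 50.01 at 5.5 dpf) and stood at 12.7 CPM at 7.5 dpf against 283 CPM at 5.5 dpf in wild type. Paralogs of complement C3 are near copies of each other, so that reads could be split between them, which was not tested. The largest negative difference was that of zgc:171480, described as mitochondrial ribosomal protein L55 (12.6 CPM at 7.5 dpf against 124 at 5.5 dpf in the mutant, 81.8 CPM at 7.5 dpf against 11.11 CPM at 5.5 dpf in wild type). The gene lpin1, for a phosphatidate phosphatase of triglyceride synthesis, had a difference of −4.75. It was level in the mutant (41.96 CPM at 7.5 dpf against 40.8 at 5.5 dpf) and had 663 CPM at 7.5 dpf against 24.0 CPM at 5.5 dpf in wild type.

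The minimum of 10 CPM left out genes that crossed it between the stages. There were 2549 genes at 10 CPM or more at 7.5 dpf alone, of which 1309 had no reads at 5.5 dpf, and 1843 at 5.5 dpf alone, of which 864 had none at 7.5 dpf. A further 5053 listed genes were under 10 CPM at both stages. Over all 13509 listed genes, with 0 to 3 reads set at 3 reads, 42.9% were 2-fold higher and 32.2% 2-fold lower. Among the genes just inside the minimum were zgc:163022 and ENSDARG00000086777, each at 10.01 CPM at 5.5 dpf. Just outside were ubl4a, slc26a5 and ENSDARG00000033733, each at 9.98 CPM at 7.5 dpf.

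Among genes at 10 CPM at 7.5 dpf alone, the most abundant was si:dkey-251i10.2, described as a putative defense protein, with 642 CPM at 7.5 dpf against 9.30 CPM at 5.5 dpf. The complement C1q-like gene c1ql1 had 412 CPM at 7.5 dpf against 0.578 CPM at 5.5 dpf, and annexin A5 (anxa5b), which binds phosphatidylserine on dying cells, had 222 CPM at 7.5 dpf against no reads at 5.5 dpf, at least 2694-fold higher when set against 3 reads. The chymotrypsin gene ctrb.1 (291 CPM at 7.5 dpf against 0.963 CPM at 5.5 dpf) is a product of exocrine pancreas, and tyrp1 (333 CPM at 7.5 dpf against 3.85 CPM at 5.5 dpf) one of pigment cells. Wild type held both at each stage, with 452 and 389 CPM at 7.5 dpf against 47.3 and 51.7 CPM at 5.5 dpf.

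Genes at 10 CPM at 5.5 dpf alone were led by liver enzymes. Homogentisate dioxygenase (hgd), of tyrosine breakdown, had 0.337 CPM at 7.5 dpf (10 reads) against 395 CPM at 5.5 dpf, while wild type held 714 and 814 CPM at 7.5 and 5.5 dpf. The gene cyp8b1, which sets the type of bile acid made, had 0.337 CPM at 7.5 dpf against 228 CPM at 5.5 dpf. The branched-chain keto acid dehydrogenase gene bckdha had no reads at 7.5 dpf against 221 CPM at 5.5 dpf, at least 2184-fold lower. In wild type these 2 stood at 313 and 187 CPM at 7.5 dpf, so that the lowest of the 4 libraries was the mutant at 7.5 dpf for each of hgd, cyp8b1 and bckdha.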

How the data were processed

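RNA-seq was made from sorted liver cells of 4 groups with 1 library each. The authors deposited, per the file headers, a table for each pair of libraries with normalized values, a fold change (a linear ratio), its log2 value and p-values, and a table of RPKM over all genes. The submitters' processing notes list the tools DESeq 1.16.0, HTSeq 0.6.0, TopHat2 2.0.12 and Bowtie2 2.2.3, without saying what each did. Genome build, annotation and strand setting: not given in the sources used here. The deposited normalized values were CPM, reads scaled to the library total. Of values of at least 1 read, 100% were whole multiples of the value of 1 read, within 0.01 of a read. This gave the reads behind each value. Any value under 1 read was taken as a stand-in for 0 and counted as no reads. The deposited p-values rest on 1 library a side and are not used, and a count test was not run for the same reason.

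Genes at 10 CPM or more at both mutant stages were kept, and the log2 ratio was taken without a pseudocount. Intervals are exact conditional binomial (Clopper-Pearson) 95% intervals on the reads; PCR reads without molecular identifiers are not independent molecules, so they cover counting error only. A gene with no reads was set to a floor of 3 reads per library for an "at least" fold. Such a fold is a bound on the counts of the libraries compared, not on the change in the cells. Wild-type values of genes that the wild-type table does not list were taken from the tables beside the mutant or from the deposited RPKM (4981 values over all 4 libraries). Symbols from a gene name table matched 3500 of the 4064 IDs. Symbols carried by several kept IDs were not used without the ID, while a symbol may also be carried by an ID that was not kept. Antisense and overlapping genes cannot be told apart without strand. The 49 gene lists and the Gene Ontology and Description groups were chosen, like the members, with earlier results of these data known, so no list is independent evidence of its direction, and none was tested. The text names, by rule, the 12 highest and 12 lowest ratios among genes with a proper symbol and the 12 most abundant. It also draws on up to 4 members of each list past 2-fold each way, with the 2 highest in RPKM, on the 8 highest and lowest differences between genotypes and on genes at the edge of the minimum. The genes fga, igfbp1b, ctsla, ctsb, tnfb, cdkn1a, pcna and ddit3, and 3 IDs marked in the text, were added after their values were seen. A few genes that the rule names are not reported here. Scripts used Python 3.11.15 with pandas 2.3.3, numpy 2.4.6, scipy 1.17.1 and matplotlib 3.10.9, and were tested on simulated counts. Alternatives were other minimums, scalings, RPKM, a pseudocount of 1 CPM and the authors' log2 values.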

Additional observations from a re-analysis of the deposited data

Results flagged for a closer look

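Among the genes with the 8 highest and 8 lowest differences between the genotypes, 10 lay past 2-fold in opposite directions in mutant and wild-type cells. Over all 2608 genes at 10 CPM in all 4 libraries, 42 were higher in the mutant and lower in wild type, and 44 the other way. The genes here were picked for a large difference, so that opposite directions follow largely from the choice. These differences were not tested, since each group had 1 library. For 5 of the 10 genes the mutant was higher at 7.5 dpf and wild type lower, and each had its highest level in the mutant at 7.5 dpf. The gene marcksl1a had 165 CPM at 7.5 dpf against 29.1 CPM at 5.5 dpf in the mutant and 16.6 CPM at 7.5 dpf against 71.0 CPM at 5.5 dpf in wild type, a difference of 4.59 on the log2 scale. For cops8, of the COP9 signalosome, the difference was 4.39 (168 CPM at 7.5 dpf against 19.3 CPM at 5.5 dpf in the mutant, 20.1 CPM at 7.5 dpf against 48.5 CPM at 5.5 dpf in wild type). For h3f3b.1, described as histone H3.3, it was 4.34 (178 CPM at 7.5 dpf against 73.9 CPM at 5.5 dpf in the mutant, 10.1 CPM at 7.5 dpf against 84.6 CPM at 5.5 dpf in wild type). The muscle tropomyosin gene tpma gave 4.30 and cptp, for a ceramide-1-phosphate carrier, gave 4.31.

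For the other 5 the mutant was lower at 7.5 dpf and wild type higher. The largest was that of zgc:171480, described as a mitochondrial ribosomal protein, at −6.18, followed by si:dkey-157l19.2, with no Description, at −5.01. The gene pum3 had 13.96 CPM at 7.5 dpf against 139.6 CPM at 5.5 dpf in the mutant and 35.6 CPM at 7.5 dpf against 14.4 CPM at 5.5 dpf in wild type, a difference of −4.62. ENSDARG00000086747, described as Toll-interacting protein, a negative regulator of Toll-like receptor signalling in mammals, gave −4.18 (10.02 CPM at 7.5 dpf against 86.3 CPM at 5.5 dpf in the mutant). The phosphatidylinositol transfer protein gene pitpnbl gave −4.02, with 31.8 CPM at 7.5 dpf against 154 CPM at 5.5 dpf in the mutant and 244 CPM at 7.5 dpf against 72.9 CPM at 5.5 dpf in wild type.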

How the results depend on the processing

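The minimum set the counts more than the scaling did. Against 932 higher and 683 lower genes at 10 CPM, there were 555 and 466 at 20 CPM, 203 and 239 at 50 CPM, and 2781 and 2209 with no minimum beyond 1 read in both mutant libraries. The genes whose mutant ratio lay 1 or more above or below the wild-type ratio, 563 and 577, became 344 and 381 at 20 CPM, 139 and 185 at 50 CPM, and 2031 and 1738 with no minimum beyond 1 read. A minimum of 5 CPM gave 1255 higher and 870 lower. With the median of all genes at 0 there were 822 higher and 808 lower, so that the higher share of calls was 50.4% in place of 57.7%. Totals without the 10 most abundant genes gave 916 and 701, and a pseudocount of 1 CPM gave 915 and 659. RPKM and the authors' deposited log2 fold change both gave 932 and 683, which had to be so. Gene length cancels in a ratio within a gene, and the authors' value is the log2 ratio of the same 2 columns. These 2 are therefore no independent check. The median of the aminoacyl-tRNA synthetase list, −0.52, became 0.081 at 20 CPM and 0.53 at 50 CPM, where fewer of its genes were kept. Of 44 list medians 5 changed sign under a scaling, all within 0.12 of 0: cytosolic ribosomal proteins, heat shock proteins, histones and chromatin, p53 targets and proteasome subunits. Of 326 named genes 270 were past 2-fold, and 11 of these fell within 2-fold under at least 1 alternative. None changed sign, but none could. Another minimum leaves a gene's ratio as it is, and a pseudocount keeps its sign. The scalings shift all log2 ratios alike, by −0.13 at most in size. The count of sign changes therefore says nothing on how firm these ratios are. No paired analysis was possible because each group had 1 library, and for the same reason no library could be left out.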
